A study of Mus musculus with 4 samples.

Results

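The clustered protocadherin genes were taken as the protein-coding RefSeq genes on mouse chromosome 18 whose symbols begin with Pcdha, Pcdhb or Pcdhg. The rule gave 57 of 21887 protein-coding genes, 14 alpha, 22 beta and 21 gamma members, in a stretch of 912 kb (mm10, chr18:36930285-37841873). The pseudogene Pcdhgb8 and the 3 read-through genes Gm37013, Gm38666 and Gm38667, which join alpha starts to the gamma end, are not members. The study profiled open chromatin by ATAC-seq in clone 11 of mpkCCD, a mouse cortical collecting duct line. ATAC-seq uses the transposase Tn5 to cut exposed DNA, and places where cuts pile up are called as peaks. Cells of both groups were expanded with serum, insulin, dexamethasone, triiodothyronine and epidermal growth factor, grown to confluence on permeable supports, and switched to medium without serum or hormones. They then received vehicle or 0.1 nM dDAVP, an analog of the antidiuretic hormone vasopressin that acts on V2 receptors, for 30 minutes. Each treatment had 2 libraries of 50000 cells. The labels do not tie the 2 libraries of a treatment to different cultures, and their spread may therefore be technical.

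Clustered protocadherins are cadherin-like adhesion proteins best known from neurons, where each cell uses a small set of them as a surface identity. Every alpha and gamma gene has its own promoter and its own large first exon, the variable exon, which is spliced to constant exons shared by the whole family, so that all alpha genes end at one place and all gamma genes at another. Beta genes consist of a single variable exon and share nothing. The insulator protein CTCF binds at the promoters of most members and inside the variable exons of many alpha members, and together with cohesin it brings a chosen promoter to distant enhancers. The C-type genes Pcdhac1, Pcdhac2, Pcdhgc3, Pcdhgc4 and Pcdhgc5 are regulated apart from the other members. All members are read in the same direction, so the lower coordinate of each was taken as its start.

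The 4 peak lists gave positions only and held 205771 to 393956 peaks, the replicate 1 lists being the longer ones in both treatments. Read depth is unknown, and a gene without a peak is a gene where none was called. Of the principal-cell markers, 7 of 8 had a gene-end peak (within 1 kb of either end of the gene) in every library, and so did 6 of 6 epithelial markers. The same was found at 6 of 8 neuronal, 1 of 5 fibroblast, 1 of 4 endothelial and 2 of 4 leukocyte markers, against 65.0% of all protein-coding genes. The exception was Avpr2, the V2 receptor gene itself, whose widest gene-end peak was 107 bp in dDAVP replicate 1 and 121 bp in vehicle replicate 2, with none in the others.

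Members rarely had a peak at their own start. A peak within 1 kb of the start was called in all 4 libraries at 3 of 57 members (5.26%), against 61.0% of the 17492 protein-coding genes whose strand is known from RefSeq. All 3 were gamma genes: Pcdhgb6, Pcdhgc3 and Pcdhgc4. By library the number was 8 in vehicle replicate 1, 4 in dDAVP replicate 1, 5 in vehicle replicate 2 and 4 in dDAVP replicate 2. Another 7 members had a start peak in some of the libraries, and 47 had none in any.

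Counting either gene end left the number in all libraries at 3 of 57, against 65.0% of all protein-coding genes and 56.4% of the other 454 on chromosome 18. No peak was called within 1 kb of the shared ends of the alpha genes or of the gamma genes in any library. Only 3 members, Pcdhb8, Pcdhb21 and Pcdhb22, had a peak at the far end, each in 1 library. These are short single-exon genes, and each of these peaks also lay inside the gene.

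Pcdhgc3 and Pcdhgc4 had the broadest start peaks of the family. At Pcdhgc3, a C-type gamma gene, the merged region (chr18:37806002-37807330) held 841 bp of peak in vehicle replicate 1, 551 bp in vehicle replicate 2, 1292 bp in dDAVP replicate 1 and 759 bp in dDAVP replicate 2. The widths of the treatments overlapped. At Pcdhgc4, the next C-type gene, the region (chr18:37814366-37816269) held 1643 and 1102 bp in the vehicle libraries of replicates 1 and 2, and 482 and 423 bp in the dDAVP libraries. Both vehicle values lay above both dDAVP values, and the test of that difference is given with the treatment comparison below. The remaining gamma C-type gene, Pcdhgc5, had a start peak of 191 bp in vehicle replicate 2 alone.

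The third member with a start peak in every library was Pcdhgb6, with a narrow region (chr18:37741972-37742099) ending just after the gene's start. Its peaks measured 72, 110, 95 and 81 bp in vehicle replicate 1, dDAVP replicate 1, vehicle replicate 2 and dDAVP replicate 2. Pcdhgb7 had a start peak in 3 libraries, of 308, 310 and 363 bp, and none in dDAVP replicate 2. Pcdhga7 had one of 291 bp in dDAVP replicate 2 alone.

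Among alpha genes start peaks were called in vehicle replicate 1 only. They lay at Pcdha4, Pcdha5, Pcdha6 and the C-type gene Pcdhac2 and measured 125, 145, 112 and 89 bp. No beta gene had a peak within 1 kb of its start in any library. The C-type genes thus accounted for 4 of the 10 members with a start peak in at least 1 library and for 2 of the 3 with one in all.

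**Figure D1:**
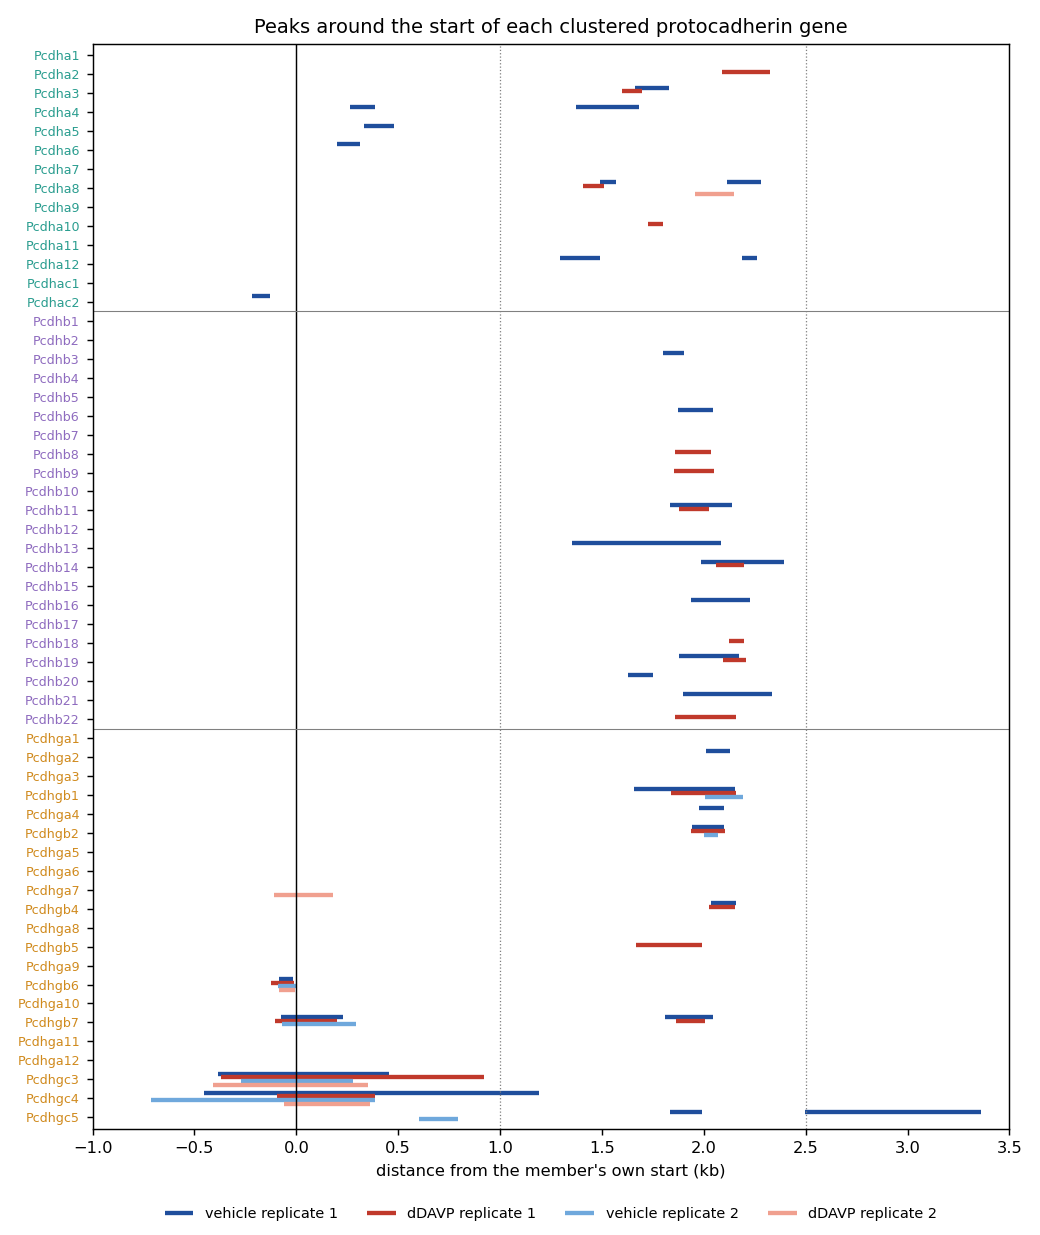
Peaks around the start of each of the 57 members, with distance from the member's own start in kb on the x axis, 1 row per member and 1 colour per library; the solid line marks the start and the dotted lines 1 and 2.5 kb. Pcdhgb6, Pcdhgc3 and Pcdhgc4 have peaks at the start in all 4 libraries, while 27 members have peaks centred between the dotted lines, nearly all in the replicate 1 libraries.

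In the replicate 1 libraries many members had a peak inside the gene, about 2 kb after the start. In the 1 to 2.5 kb after a start, a distance class chosen after the positions had been seen, 29 merged regions were found at 27 of 57 members, with a median distance of 1959 bp and quartiles of 1830 and 2081 bp. The class held 13 of 22 beta genes, 6 of 14 alpha genes and 8 of 21 gamma genes. The median distance was 1987 bp in beta genes, 1974 bp in gamma genes and 1738 bp in alpha genes. The regions were narrow, with a median width of 199 bp and a range of 72 to 733 bp.

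Beta genes showed the arrangement most plainly, since every peak inside a beta gene lay at that distance. The members with a region were Pcdhb3, Pcdhb6, Pcdhb8, Pcdhb9, Pcdhb11, Pcdhb13, Pcdhb14, Pcdhb16, Pcdhb18, Pcdhb19, Pcdhb20, Pcdhb21 and Pcdhb22, and their centres fell between 1690 and 2189 bp after the start. The widest was at Pcdhb13, with 733 bp in vehicle replicate 1 and none in the other libraries. Pcdhb14 had 410 bp in vehicle replicate 1 and 139 bp in dDAVP replicate 1, Pcdhb11 had 305 and 149 bp, and Pcdhb19 had 296 and 116 bp in the same libraries. These were the beta genes with a peak in both replicate 1 libraries. No peak inside the gene was called in any library at Pcdhb1, Pcdhb2, Pcdhb4, Pcdhb5, Pcdhb7, Pcdhb10, Pcdhb12, Pcdhb15 or Pcdhb17.

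In the gamma family the class held 5 of 6 B-type genes (Pcdhgb1, Pcdhgb2, Pcdhgb4, Pcdhgb5 and Pcdhgb7) and 2 of 12 A-type genes (Pcdhga2 and Pcdhga4), although the B genes are interspersed among the A genes. The split by type was noticed in the values and has no test. Pcdhgb1 had 498 bp in vehicle replicate 1, 321 bp in dDAVP replicate 1 and 183 bp in vehicle replicate 2. Pcdhgb2 had 155, 167 and 72 bp in the same libraries, and these 2 were the members whose region in the class was present in 3 libraries. Pcdhgc5 was the eighth gamma gene in the class, with 160 bp in vehicle replicate 1. Among alpha genes the class held Pcdha2, Pcdha3, Pcdha4, Pcdha8, Pcdha10 and Pcdha12, of which Pcdha8 and Pcdha12 had 2 regions each.

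These regions came almost entirely from the replicate 1 libraries. Vehicle replicate 1 had a peak in 22 of the 29, dDAVP replicate 1 in 16, vehicle replicate 2 in 2 and dDAVP replicate 2 in 1. None was present in all 4 libraries, 19 were in a single library, 7 were in both replicate 1 libraries alone, and 26 were absent from both replicate 2 libraries. The libraries that differ here are those of one replicate number in both treatments, and their lists are also the longest.

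The position was compared with that in 14682 protein-coding genes of at least 3 kb with a known strand. All 57 members were kept whatever their length, the shortest beta gene being 2.34 kb long. In those genes 30.3% had a peak centre 1 to 2.5 kb after the start in at least 1 library, against 27 of 57 members (47.4%). In vehicle replicate 1 the shares were 35.1% of members and 21.5% of genes, and in dDAVP replicate 1 they were 28.1% and 17.3%. In vehicle replicate 2 they were 3.51% and 15.8%, and in dDAVP replicate 2 they were 1.75% and 15.1%. Members were thus above the other genes in the replicate 1 libraries and below them in the replicate 2 libraries. The class was drawn around the members' own peaks, most of them from the replicate 1 libraries. An excess there is therefore partly built in, and the comparison is no independent test. For all other genes the commonest position was the 0.5 kb after the start, which held a peak centre at 42.1% to 47.6% of them by library, and the share fell steadily with distance from there. For members the same bin held 3.51% to 10.5%, and the 1.5 to 2 kb bin held 19.3% in vehicle replicate 1 and 14.0% in dDAVP replicate 1, against 7.91% and 6.23% of the other genes.

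With only the widest 205771 peaks of each library, the class held 16 members (28.1%, against 25.5% of the other genes), and with narrower-than-median peaks of each library removed it held 11 (19.3%, against 19.2%). With the widest peaks, vehicle replicate 1 had 15.8% of members against 13.6% of genes, and dDAVP replicate 1 had 15.8% against 13.8%. Without the narrower peaks the shares were 14.0% against 13.2% in vehicle replicate 1 and 7.02% against 11.1% in dDAVP replicate 1. Without vehicle replicate 1 it held 16 members. Variable exons resemble each other in sequence, and how reads that fit several members were placed is not given in the sources used here. Its part in these peaks was not tested.

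**Figure D2:**
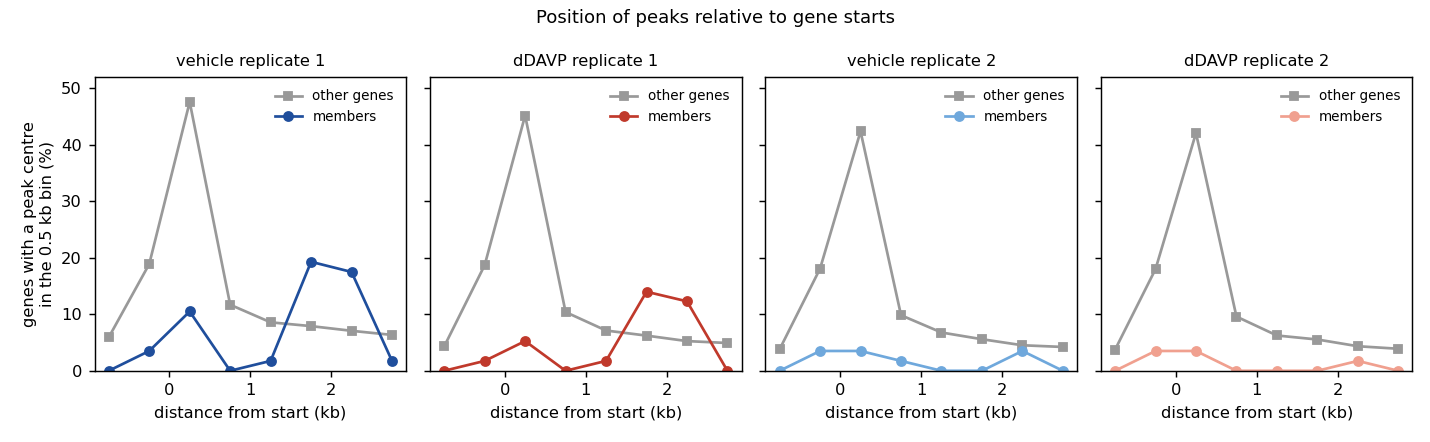
Share of genes with a peak centre in each 0.5 kb bin (y axis, percent) by distance from the gene start (x axis, kb) for the 57 members (coloured) and 14682 other protein-coding genes (grey), 1 panel per library. Other genes peak just after the start in each library, and the members rise above them between 1.5 and 2.5 kb in the replicate 1 libraries alone.

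Inside the whole gene, from start to far end, a peak was called in all 4 libraries at 32 of 57 members (56.1%), against 75.7% of all protein-coding genes. This count rests on nesting, since each alpha or gamma gene contains the variable exons of all later genes of its family. It was 12 of 14 for alpha, 20 of 21 for gamma and 0 of 22 for beta genes, which do not nest. When each alpha and gamma gene was counted only up to the start of the next one, 6 members had a peak in all 4 libraries: Pcdha7, Pcdha12, Pcdhga9, Pcdhga12, Pcdhgc3 and Pcdhgc4. The peaks credited to Pcdhga9 are those at the Pcdhgb6 start, and the stretches of Pcdhga12 and Pcdhgc3 also take in the near edge of the peaks at the Pcdhgc3 and Pcdhgc4 starts. No peak in any library fell in the own stretch of 17 members, the 9 beta genes named above and Pcdha1, Pcdha9, Pcdha11, Pcdhac2, Pcdhga1, Pcdhga3, Pcdhga5 and Pcdhga8.

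Merging the peaks of all libraries gave 74 regions along the cluster, and 15 (20.3%) had a peak in all 4 libraries, against 26.4% of 3838 regions on the rest of chromosome 18 and 15.7% of all regions in the genome. Their median width was 615 bp, and that of the 40 regions found in 1 library was 152 bp. Of the 15, those at Pcdhgb6, Pcdhgc3 and Pcdhgc4 lay at a member's start. The other 12 lay at no member's start, and 1 of these was the start of Taf7, a subunit gene of the general transcription factor TFIID that sits between the beta and gamma genes. Under a stricter overlap, 50% of each peak, 7 regions were shared by all libraries.

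The widest region lay in the interval after Pcdha7. It was 1 of 5 regions in a run of 7.11 kb (chr18:36981666-36988772, regions at most 2 kb apart), which begins 7.86 kb after the start of Pcdha7 and ends 3.69 kb before Pcdha8. The widest region itself (chr18:36986061-36988772) held 1358 bp of peak in vehicle replicate 1, 1330 bp in dDAVP replicate 1, 2017 bp in vehicle replicate 2 and 1708 bp in dDAVP replicate 2. The replicate 2 libraries were the wider ones here. The peaks 1 to 2.5 kb after member starts were called mostly in replicate 1, but that is a count and not a width. The other regions of the run found in all libraries were 630 bp (chr18:36981666-36982295) and 408 bp wide (chr18:36982743-36983150).

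A second run lay between Pcdhb8 and Pcdhb9, in the widest gap of the beta family. It held 7 regions in 5.92 kb (chr18:37365183-37371100), 3 of them in all libraries and 445, 1016 and 572 bp wide. Nearer to Pcdhb9 was a run of 3 regions in 2.33 kb (chr18:37391193-37393527), whose region in all libraries was 1080 bp wide. Another such run lay inside Pcdhgc5, beginning 0.603 kb after its start (chr18:37820149-37822908), and had no region in all libraries. It held 1027 bp in vehicle replicate 1, 191 bp in vehicle replicate 2 and none in the dDAVP libraries. It takes in the Pcdhgc5 start peak of 191 bp and the 160 bp region given above. The other 3 runs, grouped and picked after their positions were seen for holding a region in all libraries, make up 1.68% of the cluster's length. They held 49.5% of the cluster's covered length in vehicle replicate 2 and 58.2% in dDAVP replicate 2, but 23.0% in vehicle replicate 1 and 28.9% in dDAVP replicate 1. In covered bases they held 4147 bp in vehicle replicate 1, 3326 bp in dDAVP replicate 1, 5380 bp in vehicle replicate 2 and 5516 bp in dDAVP replicate 2.

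Between the beta and gamma genes, a region of 1268 bp (chr18:37630238-37631505) held 1029, 1239, 1177 and 1029 bp of peak in vehicle replicate 1, dDAVP replicate 1, vehicle replicate 2 and dDAVP replicate 2, a tight range beside most other regions. The start of Taf7 (chr18:37643930-37644544) had 471, 596, 589 and 350 bp in the same order. The single-exon gene Slc25a2, its neighbour and a mitochondrial ornithine carrier gene, had a gene-end peak of 135 bp in dDAVP replicate 2 alone. The last of the 12 widest regions shared by all libraries lay 3.63 kb before Pcdhb6 (402 bp, chr18:37330033-37330434). The 76.1 kb between the alpha and beta genes held 2 regions, each in 1 library.

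**Figure D3:**
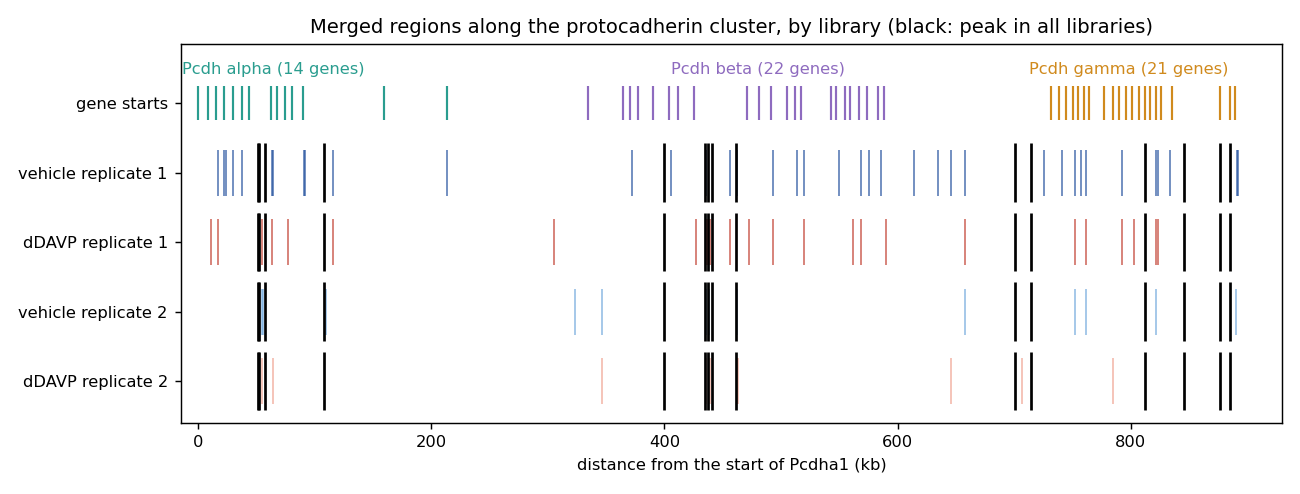
Merged regions along the cluster in each library (rows), with distance from the start of Pcdha1 in kb on the x axis and the starts of the 57 members above. Black bars are the 15 regions with a peak in all 4 libraries; they fall into a few places, while the coloured bars, regions of 1 to 3 libraries, are most numerous in the replicate 1 rows.

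The genes on either side had peaks throughout. On the upstream side, the gene-end peaks of Hars and Hars2, which encode histidyl-tRNA synthetases and share a start region, were 814, 900, 897 and 799 bp wide in vehicle replicate 1, dDAVP replicate 1, vehicle replicate 2 and dDAVP replicate 2. Those of Zmat2 were 429 to 486 bp wide. On the downstream side, the high-coordinate end of Diaph1, a formin gene whose low-coordinate end is 1.73 kb from the last member, had peaks of 901 to 1179 bp. The region shared by Hdac3, a histone deacetylase gene, and Rell2 had peaks of 1150 to 1747 bp.

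Peaks were denser in the cluster than on the rest of chromosome 18 in every library. The cluster had 60.3 peaks per Mb in vehicle replicate 1, 43.9 in dDAVP replicate 1, 32.9 in vehicle replicate 2 and 28.5 in dDAVP replicate 2, against 29.1, 23.8, 20.8 and 21.3 on the rest of the chromosome. The ratio was 2.07, 1.85, 1.58 and 1.34 in that order, with a mean log2 ratio of 0.75 ± 0.27 (SD, n = 4, exact sign-flip permutation p = 0.125, two-sided, the smallest that 4 libraries allow). The covered share was 1.98%, 1.26%, 1.19% and 1.04% in the cluster and 0.916% to 1.09% elsewhere, a mean log2 ratio of 0.44 ± 0.30 (SD, n = 4, exact sign-flip permutation p = 0.125). The rest of the chromosome included its beginning, where no peak was called. Counted from the first peak on, the log2 ratio was 0.70 for density and 0.39 for covered share. Against only those parts of chromosome 18 inside protein-coding genes, the log2 ratio was 0.41 for density (exact permutation p = 0.125) and 0.04 for covered share (exact permutation p = 0.875).

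Peaks 1 to 2.5 kb after a member's start made up 22 of the 55 cluster peaks in vehicle replicate 1, 16 of 40 in dDAVP replicate 1, 2 of 30 in vehicle replicate 2 and 1 of 26 in dDAVP replicate 2. Without them the density ratio to the rest of the chromosome was 1.24, 1.11, 1.48 and 1.29 in that order. The mean log2 ratio was then 0.35 in place of 0.75 (exact sign-flip permutation p = 0.125). Peaks were removed from the cluster only, which can only lower the ratio. Among 98 stretches of chromosome 18 as long as the cluster, laid end to end, the cluster had the most gene starts (62, against a median of 3 in the others). By peaks it ranked 7 in vehicle replicate 1, 8 in dDAVP replicate 1, 13 in vehicle replicate 2 and 20 in dDAVP replicate 2, with medians of 23, 19, 16 and 18 peaks in the other stretches. The stretch directly before the cluster held 79, 64, 56 and 51 peaks in the same order, and the one directly after it 66, 49, 34 and 36. Both exceeded the cluster's 55, 40, 30 and 26 in every library, so the cluster was the sparser part of a peak-rich neighbourhood.

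By family, the beta span, from its first gene to its last with the intervals between genes, had 50.7 ± 13.9 peaks per Mb, the gamma span 51.4 ± 21.0 and the alpha span 41.6 ± 17.4 (SD, n = 4). In the beta span, all peaks of the replicate 2 libraries, 10 in each, lay between genes. Alpha was below beta in 4 of 4 libraries (mean log2 ratio -0.33) and gamma above alpha in 4 of 4 (0.30). Each had an exact sign-flip permutation p of 0.125 and an adjusted p of 0.188 over the 3 pairs. Alpha over beta was only 0.99 in vehicle replicate 1, where each span held 17 peaks. Gamma over alpha was only 1.03 in dDAVP replicate 2, where the gamma span held 5 peaks and the longer alpha span 7. Gamma exceeded beta in 2 of 4 libraries (mean log2 ratio -0.04, exact permutation p = 0.875), and the mean was 0.11 without dDAVP replicate 2. None of these differences passed the threshold, which 4 libraries cannot reach by this test.

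**Figure D4:**
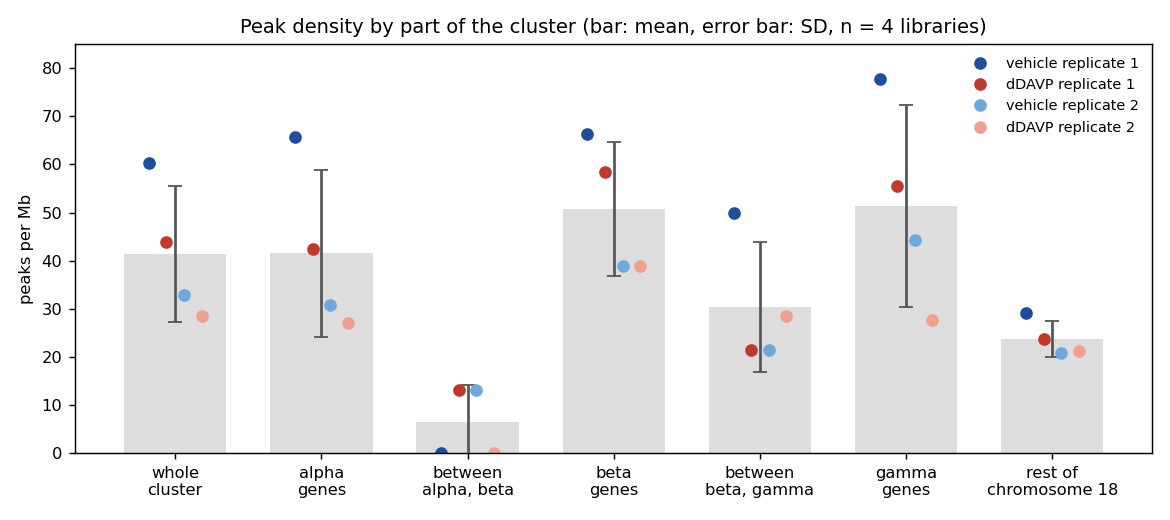
Peaks per Mb (y axis) in the whole cluster, its parts and the rest of chromosome 18; points are the 4 libraries, bars the mean and error bars the SD, drawn only above 0. In the whole cluster all 4 libraries lie between 28.5 and 60.3, and on the rest of the chromosome between 20.8 and 29.1.

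The treatment comparison asked whether 30 minutes of dDAVP changed accessibility in the cluster. Because the lists differ in length, the cluster's peaks were set against all peaks of their library. Per 100000 peaks, the cluster had 14.0 in vehicle replicate 1 (95% exact binomial interval 10.5 to 18.2), 14.5 in vehicle replicate 2 (9.78 to 20.7), 13.7 in dDAVP replicate 1 (9.81 to 18.7) and 12.6 in dDAVP replicate 2 (8.25 to 18.5). The intervals cover counting error only, and each contained all 4 values. The vehicle libraries averaged 14.2 ± 0.377 and the dDAVP libraries 13.2 ± 0.770 (SD, n = 2 each), a ratio of geometric means of 0.926 (exact permutation p = 0.333, two-sided). Both dDAVP values were below both vehicle values, and 0.333 is the smallest p that 2 against 2 allows. This separation did not hold throughout. Without the peaks 1 to 2.5 kb after a member's start, the vehicle libraries of replicates 1 and 2 had 8.38 and 13.5. The dDAVP libraries then had 8.23 and 12.1, so the treatments overlapped (log2 difference -0.09, exact permutation p = 0.667). With the cluster widened by 50 kb on each side, the log2 difference was -0.06 in place of -0.11, again without separation.

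By length, each Mb of peak in a library held 141 ± 7.54 bp of cluster peak in the vehicle libraries and 123 ± 7.81 bp in the dDAVP libraries (SD, n = 2 each), a ratio of geometric means of 0.873 (exact permutation p = 0.333). The plain number of cluster peaks was 42.5 ± 17.7 and 33 ± 9.90 in the same order, a ratio of geometric means of 0.794 (exact permutation p = 0.667). That difference was within the spread of the vehicle libraries, and its log2 value of -0.33 became 0.10 without vehicle replicate 1.

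Of the 74 cluster regions, 1 was found in the pair of dDAVP libraries only, against 1.61% of the 560228 regions of the genome, and none had the vehicle-only pattern, against 3.35%. The dDAVP-only region (chr18:37369356-37369526) lies in the run between Pcdhb8 and Pcdhb9 and held 171 bp in dDAVP replicate 1 and 145 bp in dDAVP replicate 2. By contrast, 9 cluster regions (12.2%) were in both replicate 1 libraries alone, against 8.79% in the genome and 5.21% on the rest of chromosome 18.

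Peak widths were tested in the 88231 regions present in all libraries, with limma on log2 widths after quantile normalization and Benjamini-Hochberg adjustment. None was called in the genome (0%), where 4655 had an unadjusted p under 0.05 (5.28%), and none of the 15 in the cluster was called. The lowest p in the cluster belonged to the Pcdhgc4 start, with a log2 difference of -1.52 after dDAVP (SE 0.32). It did not pass (limma adjusted p = 0.87), and the lowest adjusted p in the cluster was 0.773 to 0.915 under the alternatives. At Pcdhgc3 the estimate was 0.61 in the other direction (SE 0.39, limma adjusted p = 1). The median over the 15 was -0.06, beside 0.04 over all regions, and 6 of the 15 were wider after dDAVP, or 10 of 15 without vehicle replicate 2, when the median was 0.24. The widths of the treatments did not overlap in 3 of the 15 regions (20.0%), against 30.5% of all 88231. Besides Pcdhgc4, these were the 408 bp region after Pcdha7 (232 and 253 bp after vehicle, 78 and 184 bp after dDAVP) and the 572 bp region after Pcdhb8 (261 and 224 bp after vehicle, 323 and 448 bp after dDAVP).

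**Figure D5:**
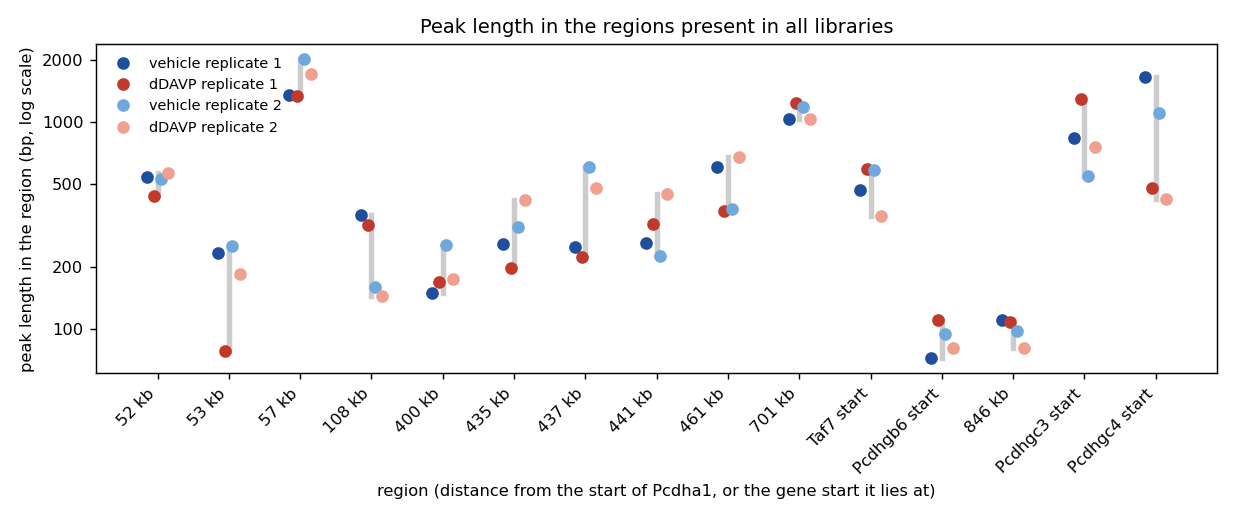
Peak length (y axis, bp, log scale) in each library for the 15 regions present in all 4, ordered along the cluster and labelled by distance from the start of Pcdha1 or by the gene start they lie at. At the Pcdhgc4 start the vehicle libraries (1643 and 1102 bp) lie above the dDAVP libraries (482 and 423 bp), while at most other regions the treatments are mixed.

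Of the 12 non-clustered protocadherins, which are single genes elsewhere in the genome (Pcdh1 and Pcdh12 lie on chromosome 18), 5 had peaks at a gene end in every library (41.7%, beside 65.0% of all genes). These were Pcdh1, Pcdh8, Pcdh17, Pcdh18 and Pcdh19. Widths of these genes and of those in the lists below are of the widest peak at either end, taken per library, which may be a different site in each. Pcdh1, the member of this group known from epithelia, had peaks of 1479 bp in vehicle replicate 1, 1679 bp in dDAVP replicate 1, 1235 bp in vehicle replicate 2 and 3315 bp in dDAVP replicate 2. Pcdh8 ranged more, with 3003, 1059, 267 and 72 bp in the same order. Pcdh7, Pcdh10 and Pcdh15 had a gene-end peak in 3 libraries and Pcdh20 in 2, both of replicate 1. Pcdh9, Pcdh11x and Pcdh12 had none, though Pcdh9 and Pcdh11x had peaks inside the gene in all 4 libraries.

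Genes known to act on the cluster had gene-end peaks almost throughout. Of 19 genes for CTCF, cohesin and its loaders and release factors, DNA methylation and heterochromatin, 16 had one in all 4 libraries (84.2%, beside 65.0% of all genes). Ctcf had widths of 1624, 1633, 1623 and 1597 bp in vehicle replicate 1, dDAVP replicate 1, vehicle replicate 2 and dDAVP replicate 2, and the cohesin subunit genes Smc1a and Rad21 had 987 to 1033 bp and 104 to 208 bp. The exceptions were the cohesin subunit gene Stag1 with a gene-end peak in 1 library, the loader gene Nipbl with 2 and the DNA methyltransferase gene Dnmt3a with 3, and all 3 had peaks inside the gene in every library.

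Of 16 genes for partners and effectors of the proteins (kinases, the WAVE actin-regulating complex, and the proteases that cleave protocadherins), 14 had peaks at a gene end in every library (87.5%, beside 65.0% of all genes). The focal adhesion kinase genes Ptk2 and Ptk2b had widths of 1191 to 1255 bp and 896 to 2095 bp, and the kinase gene Fyn had 1214 to 1503 bp. For Marcks, which encodes an actin-linked substrate of protein kinase C, the widest gene-end peak was 410 and 398 bp in the replicate 1 libraries and 1892 bp in each replicate 2 library. The exceptions were the WAVE complex gene Abi2, with a gene-end peak in 1 library, and Axin1, with 2. The median gene of both lists had peaks at an end in 4 libraries, and the median non-clustered protocadherin in 3.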

How the data were processed

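The authors deposited 1 peak list per library, whose only columns are positions (chromosome, start, end), without scores or heights. Per the submitters' processing notes, cutadapt, Bowtie2, SAMtools, Picard, bedtools and MACS2 were used with mm10. Not given in the sources used here are versions, settings, duplicate handling, the placement of reads that fit several sites and any shift for the Tn5 cut. Depth is unknown.

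Here starts were made 1-based, and peaks overlapping by 1 bp or more were merged. A peak counted for a window it touched. Genes came from RefSeq (GRCm38.p6, which mm10 names), and strands of 17492 genes from its promoter table, which gave none for the members. Libraries were compared by exact permutation or sign-flip tests, and widths with limma 3.58.1 in R 4.3.3 at an adjusted p of 0.05. All 5000 simulated sites got the right pattern of libraries.

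Members and lists were chosen with earlier results of these data known. The text names members with a start peak in any library, the 3 genes on each side, non-members within the cluster, up to 6 genes per list (first those without a gene-end peak in all libraries), all non-clustered protocadherins, the 12 widest regions in all libraries, and treatment-specific regions. Members with peaks or none further inside were named after seeing their values. Alternatives changed the window, the peaks used, the merging, the cluster's bounds, the reference, and the libraries. No sequence is shown.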

Additional observations from a re-analysis of the deposited data

How the results depend on the processing

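Over 113 recomputed values, 104 kept their direction and, for counts, stayed within 1.5 times of the reported one, and the other 9 were as follows. A peak in any 1 library in place of all 4 gave 10 members with a start peak and 13 with a gene-end peak. Counting each gene only to the next start gave 6 members with an inside peak, and requiring 50% overlap gave 7 regions shared by all libraries. The number of members with a peak 1 to 2.5 kb after the start, 27 in all, was 16 with the widest peaks of each library, 11 without peaks narrower than the median, and 16 to 27 with a library left out, the lowest without vehicle replicate 1. The log2 difference in cluster peaks ranged from -0.77 to 0.10 with a library left out, and was positive without vehicle replicate 1. With a library left out, the log2 ratio of gamma to beta density ranged from -0.13 to 0.11, and was positive without dDAVP replicate 2. The cause of these moves was not tested. The width deviations of same-numbered libraries correlated by 0.097, and the labels name nothing that a number shares, so the numbers were not taken as pairs, although both replicate 1 lists are the longer ones. With a replicate block the log2 differences were -0.11, -0.20 and -0.33 (exact sign-flip permutation p = 0.5, the smallest that 2 pairs allow), and 0 widths were called. Depth, which is unknown, limits every absence.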
